A study of Drosophila melanogaster with 18 samples.

Results

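Egg chambers of Drosophila melanogaster in which the epidermal growth factor receptor (EGFR) was made constitutively active were compared with wild-type egg chambers from the same hybridization round. The 3 arrays titled as EGFR gain of function and the 3 arrays of wild type A were taken by their titles, 6 of the 18 arrays in the series. All 13966 probe sets other than 44 Affymetrix controls were tested. The series holds 6 groups of 3 arrays in 2 rounds, each array hybridized with RNA of ovarian egg chambers at stages 9 to 10, and round 1 also holds EGFR loss and BMP gain arrays. Wild type A was OreR. EGFR gain flies carried CY2-GAL4, a line that drives transgenes in follicle cells, and UAS-lambda-Top, a constitutively active form of the receptor. EGFR loss flies carried CY2-GAL4 and UAS-dnEGFR, a dominant-negative receptor, and BMP gain flies carried CY2-GAL4 and UAS-tkv*, an active receptor of bone morphogenetic protein (BMP) signals. All were females aged 6 to 8 days that had been fed yeast for 24 h at 23 °C. Each replicate held 100 egg chambers out of the 300 dissected for its genotype. The p-values therefore rest on the spread of these samples alone, which may be technical. Flies with CY2-GAL4 alone were not analysed here, and OreR carries neither driver nor transgene, so strain, driver and receptor activity cannot be told apart in a difference from wild type. EGFR loss and BMP gain share the driver with EGFR gain, so direct tests of EGFR gain against them are given beside many of the main differences. Where no direct test is printed, only the difference from wild type is given.

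In the egg chamber a layer of follicle cells surrounds the oocyte and its sister nurse cells, patterns the future egg and secretes the eggshell. EGFR, a receptor tyrosine kinase, sits on the follicle cells and is activated by the ligand Gurken, which the oocyte releases near its nucleus at the dorsal anterior corner. The receptor signals through Ras, Raf and the mitogen-activated protein kinase to transcription factors, induces several of its own inhibitors, and divides the follicle cells into dorsal and ventral fates.

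Values are log2 intensities as the authors deposited them. Means carry the SD over 3 arrays, and changes are log2 differences with their SE and the Benjamini-Hochberg adjusted p from limma. A probe set with an adjusted p under 0.05 is called higher or lower. Where leaving out an array ended a call, the highest adjusted p so reached is given with its array. Array medians were 4.48 to 4.51, and Spearman correlations were 0.967 to 0.970 among the wild type A arrays, 0.966 to 0.968 among the EGFR gain arrays and 0.960 to 0.965 between the groups. The difference between 3' and 5' control probe sets, a sign of RNA quality, ran from 1.03 to 1.20 for actin in wild type A and was 1.37, 0.85 and 1.63 in EGFR gain. It was 1.61 to 1.91 against 2.11, 1.79 and 2.17 for eIF-4a, and 1.98 to 2.07 against 2.19, 1.78 and 2.45 for GAPDH. EGFR gain arrays 1 and 3 were thus above, and array 2 not above, all wild type arrays for these 3 controls, and for 18S rRNA the groups overlapped. The part of RNA quality in the results was not tested. Yolk protein and vitelline membrane genes, which mark follicle cells, were among the brightest on all 6 arrays, with Yp1 at 12.69 to 12.93 and Vm34Ca at 12.98 to 13.27. Whole egg chambers were measured, and fewer cells of a type cannot be told apart from less RNA per cell.

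In EGFR gain 212 probe sets (1.52%) were called higher and 180 (1.29%) lower than in wild type A, together 392 or 2.81% of those tested. At an unadjusted p under 0.05 stood 13.7%. By the representative probe set of each gene, 183 genes (1.69%) were higher and 158 (1.46%) lower, or 3.15% of 10825 genes. Each count of called list members below stands beside that 3.15%. Most changes were small. The median called rise was 1.63-fold and the median called fall 1.57-fold, and 99 probe sets (0.709%) moved at least 2-fold, 63 up and 36 down. Changes of at least 4-fold numbered 30 up and 11 down. The arrays of the groups did not overlap in any called probe set, and they did not overlap in 21.3% of all probe sets, with EGFR gain above in 10.7% and below in 10.6%. For 23 of the called rises the wild type mean lay under 1.96, the lower quartile of the wild type values, where the size of a fold depends on how the authors treated background. In the plot of every probe set by its level, GstD1 stands apart among the calls at high levels.

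**Figure D1:**
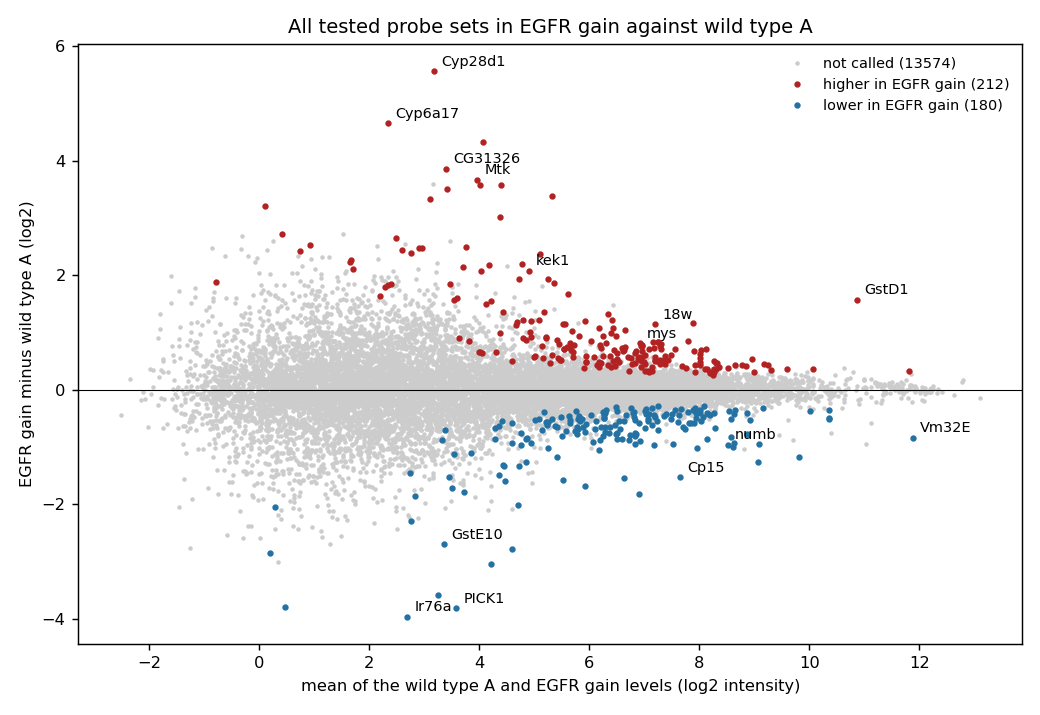
Difference between EGFR gain and wild type A (log2, vertical axis) against the mean level of the groups (log2 intensity, horizontal axis) for all 13966 probe sets, with 212 called higher in red and 180 called lower in blue. The largest rise, Cyp28d1, and the largest falls, Ir76a and PICK1, belong to genes with mean levels below the median, and GstD1 stands out among bright genes.

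The receptor gene itself was read by 2 probe sets. One gave 4.40, 4.35 and 4.51 in wild type A and 6.18, 6.52 and 6.18 in EGFR gain. Every EGFR gain array stood more than 1.5 log2 units above every wild type array, and the rise of Egfr by this probe set was 1.87 ± 0.16 (adjusted p = 2.7e-05). Its means in EGFR loss and BMP gain were 4.10 ± 0.21 and 4.18 ± 0.28, and EGFR gain was higher than each in the direct tests (1.8e-05 and 9.0e-06). The brighter Egfr probe set gave 5.75, 5.46 and 5.54 against 5.36, 5.26 and 5.78. Its arrays overlapped, at -0.12 ± 0.21 (0.88). The stretch of transcript that each Egfr probe set targets was not looked up. EGFR gain and EGFR loss flies carry transgenes of this receptor, UAS-lambda-Top and UAS-dnEGFR. RNA of a transgene and RNA of the resident Egfr gene therefore cannot be told apart in these values.

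No gene of the ligand and receptor list or of the downstream cascade was called by its representative probe set. Of 5 measured ligand, ligand-processing and receptor genes, 0 were called by limma and 1 had an unadjusted p under 0.05, with a median change of -0.01 beside -0.00 over all genes. The ligand gene grk, which encodes Gurken, was read at 5.43, 5.32 and 5.27 in wild type A and 5.37, 5.20 and 5.42 in EGFR gain, a change of -0.01 ± 0.12 (adjusted p = 0.98). The groups overlapped. The ligand gene spi gave 6.53, 6.46 and 6.37 against 6.07, 6.00 and 5.73. All EGFR gain arrays were below all wild type arrays, but the change of -0.52 ± 0.14 was not called (0.063). Krn, another ligand gene, changed by 0.01 (0.99), and S, whose product carries ligands out of the endoplasmic reticulum, by 0.10 (0.80). The genes vn, rho, ru and stet of this list were not named on the array.

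Of 15 measured genes of the cascade from receptor to transcription factors, 0 were called and 4 had an unadjusted p under 0.05, with changes from -0.55 to 0.32 and a median of 0.09. Ras85D, Raf, rl, pnt and Gap1 were not named on the array. Cbl, which encodes a ubiquitin ligase that takes activated receptor out of signalling, stood at 9.30, 9.24 and 9.22 in wild type A and at 9.37, 9.55 and 9.35 in EGFR gain. The groups did not overlap, yet the difference of 0.17 ± 0.09 was not called (0.45). Set against the other driver lines, Cbl by this probe set was higher in EGFR gain than in EGFR loss, by 0.52 ± 0.09 (0.0088). It was also higher than in BMP gain, by 0.57 ± 0.09 (0.0066). A dimmer Cbl probe set changed by -0.18 against wild type (0.93). It differed by -0.53 from EGFR loss (0.68) and by -0.06 from BMP gain (0.98), all uncalled. Mkp3, which encodes a phosphatase that switches the kinase off, was read at 6.55, 6.54 and 6.57 against 6.86, 6.77 and 6.97. That difference, 0.32 ± 0.11, was not called either (0.16). A dimmer Mkp3 probe set changed by 0.08 (0.93), with overlapping arrays. For aop, which encodes an ETS repressor, the change was 0.29 ± 0.13 (0.33), and for cic, which encodes a repressor that the kinase inactivates, it was -0.21 ± 0.18 (0.70). Lower but uncalled levels were read for csw, the gene of an SH2-domain phosphatase that acts below the receptor, at -0.55 ± 0.22 (0.27), and for ksr, the gene of a scaffold that joins Raf and its target kinase, at -0.36 ± 0.14 (0.25). The other 9 measured members, Dsor1, Nf1, Shc, Sos, cnk, dos, drk, edl and gro, changed by -0.03 to 0.27 and were not called.

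Among the feedback inhibitor genes the test called kek1 alone. Of 8 measured feedback genes 1 was called higher and 0 lower, and the median change was 0.81 beside -0.00 over all genes. By the representative probe set, every EGFR gain array was above every wild type array in 5 of them, as in 10.7% of all probe sets. The gene kek1, for a transmembrane protein with leucine-rich repeats that binds and inhibits EGFR, was read at 4.18, 4.37 and 3.06 in wild type A and at 6.00, 5.85 and 5.98 in EGFR gain. The EGFR gain arrays lay close together and the wild type arrays spread over more than 1 log2 unit. The rise was 2.08 ± 0.49, or 4.21-fold (adjusted p = 0.037), and the call was lost when any of the 6 arrays was left out, at adjusted p from 0.058 without EGFR gain array 3 to 0.17 without wild type array 3. Against EGFR loss, where kek1 stood at 2.25 ± 0.63, the difference was 3.70 ± 0.49 (0.0014), and against BMP gain, at 4.08 ± 0.53, it was 1.86 ± 0.49 and not called (0.11).

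The other feedback genes were not called. The gene aos, for the secreted inhibitor Argos, gave 0.01, 0.65 and -0.71 in wild type A and 2.72, 1.44 and 2.76 in EGFR gain, a difference of 2.32 ± 1.16 (adjusted p = 0.42) near the bottom of the scale. For sty, the gene of the intracellular inhibitor Sprouty, the values were 4.83, 4.43 and 5.00 against 5.43, 5.51 and 5.61. The groups of sty did not overlap, with a difference of 0.76 ± 0.55 (0.62). Among the relatives of kek1, kek4 differed by 1.89 ± 0.60 (0.14) and kek5 by 0.85 ± 0.47 (0.48), with no overlap of arrays in either. For kek4 the wild type values, -0.04, -0.23 and -0.34, lay at the bottom of the scale. Its other probe set changed by -0.78 ± 0.78 (0.76), in the opposite direction and with overlapping arrays. The relatives kek2, kek3 and kek6 differed by 0.27, 0.23 and -0.11 (0.94, 0.82 and 0.87), with overlapping arrays. The 95% interval for aos ran from -0.17 to 4.82 and that for sty from -0.43 to 1.95, so neither zero nor a rise as large as that of kek1 lies outside the interval of aos.

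**Figure D2:**
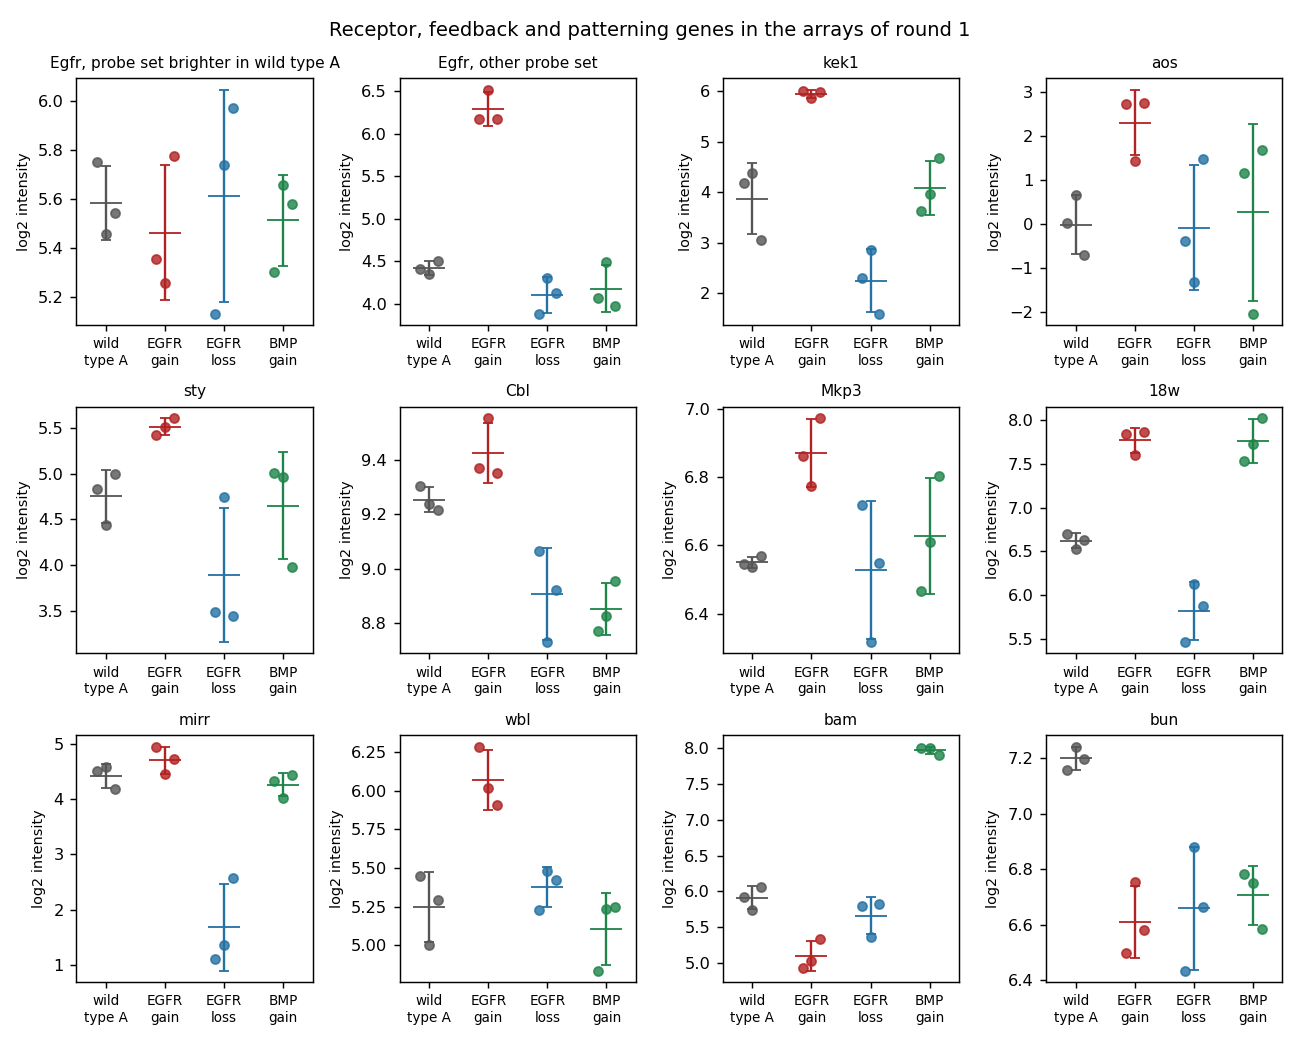
Log2 intensity of Egfr (both probe sets) and of feedback, cascade and patterning genes in the 4 groups of round 1, with 1 point per array, the mean as a horizontal line and the SD over 3 arrays as a bar; each panel has its own vertical range. The EGFR gain arrays stand apart for 1 Egfr probe set and kek1, while mirr differs from the other groups in EGFR loss and bam in BMP gain. By the tests kek1 was not called against BMP gain, and wbl was called higher in EGFR gain than in each other group.

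Of 13 measured genes of the follicle cell patterning list, 2 were called higher, 2 lower and 9 were not called, with a median change of 0.04. That is 30.8% called, beside 3.15% of all genes. The list was chosen with earlier results known and includes the germline differentiation gene bam. The gene 18w, for a Toll-family receptor that acts in follicle cell migration, was read at 6.70, 6.53 and 6.63 in wild type A and at 7.84, 7.61 and 7.86 in EGFR gain. It rose by 1.15 ± 0.16, or 2.21-fold (adjusted p = 0.0013). Its level was 5.82 ± 0.33 in EGFR loss and 7.76 ± 0.25 in BMP gain, so EGFR gain was higher than EGFR loss by 1.95 ± 0.16 (2.4e-05), and against BMP gain the difference was 0.01 (0.99), with a 95% interval from -0.32 to 0.35. The gene wbl encodes an endoplasmic reticulum protein that the sulfotransferase Pipe needs in setting the dorsoventral axis. It gave 5.45, 5.00 and 5.29 in wild type A and 6.29, 6.02 and 5.91 in EGFR gain, without overlap. The rise was 0.82 ± 0.15 (0.010), and wbl was also higher than in EGFR loss (0.69 ± 0.15, 0.033) and BMP gain (0.96 ± 0.15, 0.0066). The call against wild type was lost without EGFR gain array 1 (0.054) and without wild type array 2, and that against EGFR loss rose to 0.14 without EGFR gain array 1.

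The falls in this list were those of bam and bun. The gene bam, for a factor of germline differentiation, was at 5.93, 5.74 and 6.06 in wild type A and at 4.94, 5.04 and 5.33 in EGFR gain. It fell by 0.81 on the log2 scale, with SE 0.13 (adjusted p = 0.0045), while its level in BMP gain was 7.97 ± 0.05, above every other group of the round. The difference between EGFR gain and BMP gain was -2.86 ± 0.13 (7.2e-08) and that from EGFR loss -0.56 ± 0.13 (0.049), the latter reaching 0.19 without EGFR gain array 1. For bun, which encodes a transcription factor of the TSC22 family, the arrays read 7.16, 7.24 and 7.20 against 6.50, 6.75 and 6.58. The change of -0.59 ± 0.12 (0.022) kept its call only without EGFR gain array 2, and its adjusted p was highest without EGFR gain array 1 (0.096). EGFR loss and BMP gain levels of bun, 6.66 ± 0.22 and 6.71 ± 0.11, were not called different from EGFR gain (0.92 and 0.87).

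Other patterning genes did not pass the test against wild type. The dorsal homeobox gene mirr, of the Iroquois family, was at 4.52, 4.59 and 4.18 in wild type A and at 4.94, 4.45 and 4.74 in EGFR gain, with overlap and a change of 0.28 ± 0.31 (adjusted p = 0.79). Against EGFR loss, where mirr stood at 1.68 ± 0.79, the difference was 3.03 ± 0.31 (0.0002). Its relative caup differed from wild type by -1.04 ± 0.51 (0.40) without overlap of arrays, and ara by 0.54 ± 0.63 (0.81). The gene pip, for the ventral sulfotransferase Pipe, gave 3.94, 3.82 and 3.14 against 2.87, 2.63 and 3.26. Only EGFR gain array 3 reached the wild type range of pip, and the change of -0.71 ± 0.71 was not called (0.76). For the cadherin gene Cad74A the change was -0.87 ± 0.38 (0.32), for fng, which encodes a glycosyltransferase that modifies Notch, 0.09 ± 0.16 (0.89), and for the zinc-finger gene br 0.04 ± 0.48 (0.99).

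The largest rises were led by genes of cytochrome P450 enzymes, which oxidise foreign compounds and hormones. Cyp28d1 was at 0.08, 0.75 and 0.37 in wild type A and at 5.87, 5.81 and 6.19 in EGFR gain. All EGFR gain arrays were far above the wild type arrays, which lay at the bottom of the scale, and the rise was 5.56 ± 0.33 (adjusted p = 8.7e-07). Cyp6a17 was read at 0.40, -0.63 and 0.29 against 4.45, 4.48 and 5.09, a rise of 4.66 ± 0.28 (9.5e-07). In EGFR loss and BMP gain Cyp28d1 had means of 6.29 ± 0.39 and 4.90 ± 0.33 and Cyp6a17 arrays read 3.75 to 4.17 and 4.06 to 4.47. For neither gene was a difference between EGFR gain and those lines called (0.73 and 0.19 for Cyp28d1, 0.32 and 0.63 for Cyp6a17). High levels in all 3 driver lines were also read for CG7742, the neighbour of Cyp28d1, which was at 2.62 ± 0.49 in wild type A and 6.19 ± 0.14 in EGFR gain (3.57 ± 0.24, 2.7e-06) and at 6.52 ± 0.16 and 5.64 ± 0.12 in EGFR loss and BMP gain. The means of CG12560 were 3.94 ± 0.35 in wild type A and 6.30 ± 0.04 in EGFR gain, and 6.04 ± 0.09 and 6.33 ± 0.20 in the other lines, with a rise in EGFR gain of 2.36 ± 0.17 (4.7e-06). For mthl8, a gene of a G protein-coupled receptor of the methuselah family, wild type arrays gave 1.66, 2.56 and 0.79 and EGFR gain arrays 5.10, 4.82 and 5.62, a rise of 3.51 ± 0.61 (0.0068). The direct tests of mthl8 were not called (0.28 against EGFR loss, 0.87 against BMP gain). A dimmer mthl8 probe set differed from wild type by 1.92 ± 0.67, without overlap of arrays and not called (0.18). CG10512 was at 2.91, 0.78 and 2.98 against 6.13, 5.48 and 5.79, a rise of 3.58 ± 0.60 (0.0049), and its differences from EGFR loss, 2.38 ± 0.60 (0.065), and BMP gain, 1.38 ± 0.60 (0.40), were not called.

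Several of the largest rises were higher in EGFR gain than in either other driver line. These direct tests share the EGFR gain arrays with the comparison that ranked the genes, so they are given gene by gene. Of 14 measured muscle markers 3 were called lower in EGFR gain than in EGFR loss and 0 higher, with a negative change in 13 and a median of -0.77. Mlc2 and Prm were lower by -1.31 ± 0.21 (0.0050) and -1.82 ± 0.24 (0.0015), the third being Mlc1. Of 6 measured fat body genes 1, Obp99b, was called lower than in EGFR loss and 0 higher. The fat body change was negative in 5, with a median of -0.74. Of 7 hemocyte genes 1, srp, was called higher and 0 lower, with a negative change in 5. The part of muscle, fat body and hemocyte RNA in the tests against EGFR loss was not tested. Probe sets called in the direct tests numbered 293 (2.1%) against EGFR loss and 178 (1.27%) against BMP gain. CG31326 was read at 1.74, 1.14 and 1.54 in wild type A and at 5.25, 5.67 and 5.09 in EGFR gain, a rise of 3.86 ± 0.23 (adjusted p = 8.7e-07), while EGFR loss stood at 1.78 ± 0.31 and BMP gain at 1.65 ± 0.35. The EGFR gain arrays were the only high ones of the round, and the direct differences were 3.55 ± 0.23 (1.0e-05) and 3.68 ± 0.23 (1.4e-06). CG13616 gave 2.61, 2.56 and 2.39 against 5.08, 5.06 and 4.87, a rise of 2.49 ± 0.36 (0.0021). It differed by 2.29 ± 0.36 (0.0066) from BMP gain and by 1.62 ± 0.36 (0.034) from EGFR loss, the latter not called without EGFR gain array 1 (0.12). CG46339 was at 3.17, 2.57 and 3.25 against 5.16, 4.95 and 5.09. Its rise of 2.07 ± 0.41 (0.014) was not called without wild type array 2 (0.072) or EGFR gain array 1. The direct differences of CG46339 were 2.67 ± 0.41 (0.0033) from EGFR loss and 2.16 ± 0.41 (0.019) from BMP gain, the latter reaching 0.082 without BMP gain array 2. The P450 gene Cyp12d1-d was at 3.67 ± 0.43 in wild type A, 4.68 ± 0.25 in EGFR loss, 4.47 ± 0.09 in BMP gain and 5.87 ± 0.19 in EGFR gain. Its rise from wild type was 2.20 ± 0.19 (2.4e-05), and EGFR gain exceeded EGFR loss by 1.20 ± 0.19 (0.0038) and BMP gain by 1.41 ± 0.19 (0.0016). CG1503 rose by 1.93 ± 0.22 (0.00031). It was not called against EGFR loss, at 5.64 ± 0.14 (0.95), and was above BMP gain by 1.26 ± 0.22 (0.013), a call lost without BMP gain array 1 (0.065).

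**Figure D3:**
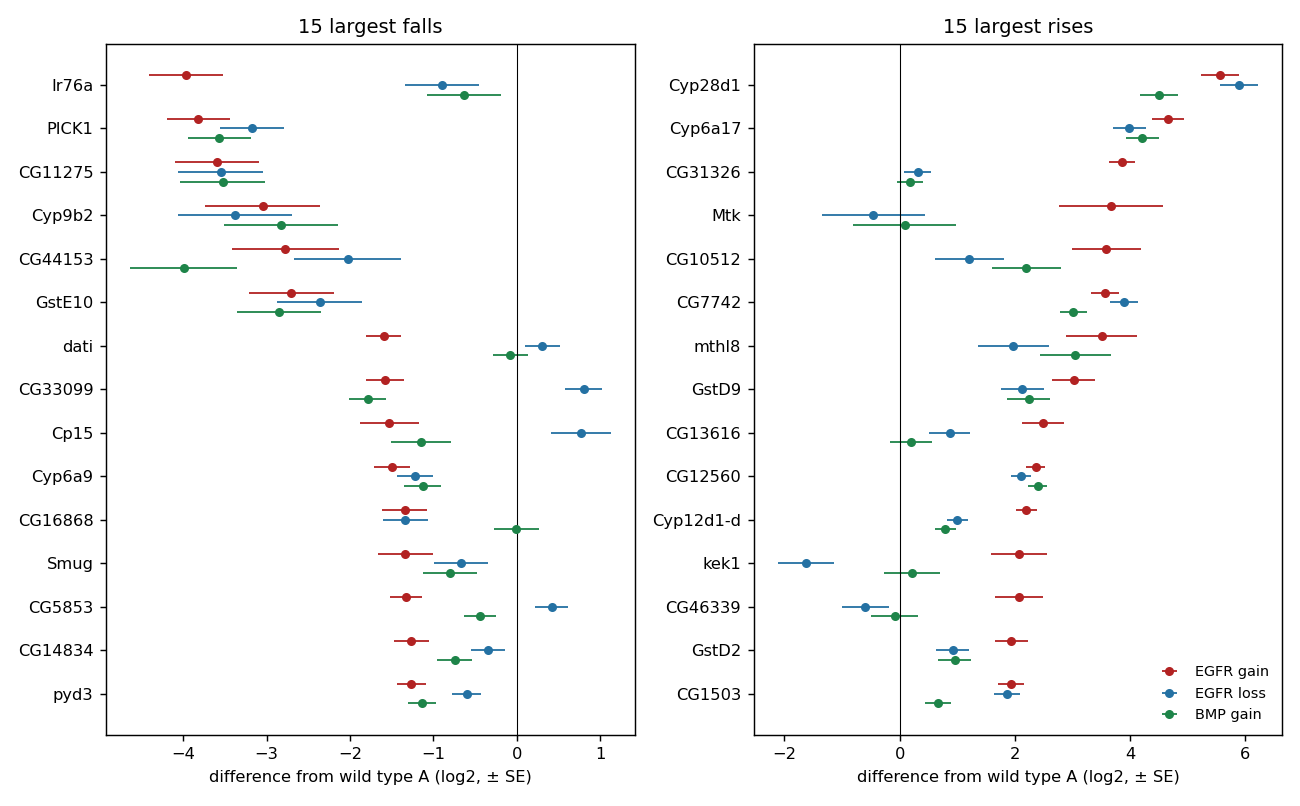
Difference from wild type A (log2, with SE bars) in EGFR gain, EGFR loss and BMP gain for the 15 largest called falls (left) and the 15 largest called rises (right) of EGFR gain; the 3 differences of a gene share the wild type A arrays. For Cyp28d1, Cyp6a17, PICK1 and CG11275 the 3 driver lines lie together, and for CG31326, Ir76a and dati EGFR gain lies apart.

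The largest fall was that of Ir76a, a gene of the ionotropic receptor family of chemosensory channels. It was at 5.10, 4.42 and 4.51 in wild type A and at 0.36, -0.32 and 2.10 in EGFR gain, and fell by 3.96 on the log2 scale with SE 0.44 (adjusted p = 0.00023). Levels in EGFR loss and BMP gain were 3.78 ± 0.14 and 4.04 ± 0.14, and EGFR gain was lower than each, by -3.06 ± 0.44 (0.0024) and -3.33 ± 0.44 (0.0017). The gene dati, for a zinc-finger transcription factor, was read at 5.51, 5.10 and 5.20 against 3.18, 3.68 and 4.16. By this probe set dati changed by -1.60 ± 0.21 (0.00082), and it was lower than EGFR loss by -1.90 ± 0.21 (0.00032) and than BMP gain by -1.52 ± 0.21 (0.0020), while its 2 other probe sets changed by 0.01 and 0.05. CG5853 gave 5.04, 5.01 and 5.23 against 3.90, 3.58 and 3.82, a change of -1.33 ± 0.19 (0.0021), and differed from EGFR loss (-1.74 ± 0.19, 0.00035). Its difference from BMP gain, -0.89 ± 0.19 (0.041), reached 0.17 without BMP gain array 3.

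For another set of falls no difference between EGFR gain and the other driver lines was called. PICK1, which encodes a membrane-binding PDZ-domain protein, was at 5.72, 5.69 and 5.07 in wild type A and at 1.66, 1.46 and 1.90 in EGFR gain, a change of -3.82 ± 0.38 (adjusted p = 8.1e-05), with EGFR loss at 2.32 ± 1.03 and BMP gain at 1.93 ± 0.11. CG11275 gave 4.63, 5.11 and 5.44 against 1.01, 1.79 and 1.59, a change of -3.60 ± 0.51 (0.0016), with 1.51 ± 0.26 and 1.53 ± 0.14 in the other lines. The direct tests of PICK1 (0.50 and 0.89) and CG11275 (0.98 and 0.98) were not called. The P450 genes Cyp9b2 and Cyp6a9 changed by -3.05 ± 0.69 (0.031) and -1.50 ± 0.22 (0.0021) and were likewise not called against either driver line. The call of Cyp9b2 was lost in turn without each array other than EGFR gain array 2, up to 0.12 without wild type array 3, and another Cyp9b2 probe set changed by 1.10, in the opposite direction and uncalled. For CG44153, at -2.78 ± 0.64 (0.035), the call was lost whichever array was left out (up to 0.12 without wild type array 3), and its 3 other probe sets changed by 0.29, 0.11 and -1.01, all uncalled.

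A further set differed from only 1 of the other lines by the test. CG33099 was at 6.41, 6.16 and 6.39 in wild type A and at 5.19, 4.71 and 4.32 in EGFR gain, a change of -1.58 ± 0.22 (adjusted p = 0.0017). A dimmer probe set of this gene changed by -0.25 (0.90) and differed by -0.58 from EGFR loss (0.66), both uncalled. By the brighter probe set EGFR loss stood at 7.12 ± 0.20 and BMP gain at 4.53 ± 0.24. EGFR gain was thus lower than EGFR loss (-2.38 ± 0.22, 9.7e-05) and not called against BMP gain (0.21 ± 0.22, 0.83). CG16868 showed the reverse, at 4.05 ± 0.24 in EGFR gain, 4.05 ± 0.68 in EGFR loss and 5.38 ± 0.39 in BMP gain, with 5.39 ± 0.15 in wild type A (-1.34 ± 0.27, 0.015). Its call against wild type was lost without wild type array 2 (0.072) and without EGFR gain arrays 1 or 3, and that against BMP gain (-1.34 ± 0.27, 0.027) reached 0.12 without EGFR gain array 1. CG14834 changed by -1.27 ± 0.21 (0.0043) and was lower than EGFR loss by -0.92 ± 0.21 (0.035), a call lost whichever of the 6 arrays involved was left out, up to 0.15 without EGFR gain array 1. Among the remaining falls, Smug encodes a uracil DNA glycosylase and changed by -1.34 ± 0.33 (0.044), up to 0.18 without EGFR gain array 1 and kept only without EGFR gain array 2. The gene pyd3, for an enzyme of pyrimidine breakdown, changed by -1.26 ± 0.17 (0.0013) and kept its call without each array.

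Glutathione S-transferases, which join glutathione to reactive compounds, moved in both directions. Of 34 measured genes 8 were called higher and 3 lower, which is 32.4% of the list beside 3.15% of all genes, and the median change was 0.09. The members are close paralogs, and how far their probe sets read each other's RNA was not tested. GstD1, the brightest of the family, was at 9.93, 10.08 and 10.26 in wild type A and at 11.66, 11.63 and 11.69 in EGFR gain. It rose by 1.57 ± 0.08, or 2.97-fold (adjusted p = 3.4e-07), and stood at 11.67 ± 0.02 in EGFR loss and 11.62 ± 0.02 in BMP gain (0.98 and 0.94 in the direct tests). GstD9 gave 2.78, 3.68 and 2.15 against 5.84, 5.86 and 5.98, and GstD2 gave 4.17, 3.99 and 4.69 against 6.33, 6.07 and 6.26. These rises were 3.02 ± 0.37 (0.00051) for GstD9 and 1.94 ± 0.29 (0.0022) for GstD2, and neither was called against the other driver lines. GstD3, at 6.62, 6.93 and 6.92 against 7.46, 7.54 and 7.62, rose by 0.72 ± 0.13 (0.0077) but was lower than in EGFR loss, where it reached 8.78 ± 0.04, by -1.24 ± 0.13 (0.00022).

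GstD9, GstD1, GstD2 and GstD3 follow one another in the gene order, and all 4 rose. Next to each other also lie GstE10 and GstE1, which both fell. GstE10 was at 4.48, 4.42 and 5.22 in wild type A and at 2.53, 2.34 and 1.14 in EGFR gain, a change of -2.70 ± 0.51 (adjusted p = 0.011) that was not called without wild type array 3 (0.057). GstE1 gave 8.45, 8.59 and 8.69 against 7.70, 7.75 and 7.68, a change of -0.86 ± 0.13 (0.0023). Neither was called against EGFR loss and BMP gain, which had means of 2.34 ± 1.03 and 1.86 ± 0.57 for GstE10 and 7.42 ± 0.08 and 7.47 ± 0.09 for GstE1. Chosen after their values were seen, the other called members were GstD8 (1.84), GstT3 (0.52), GstE12 (0.46) and GstE11 (0.44), which rose, and GstE8 (-0.81), which fell. The calls of GstD8, GstT3 and GstE12 were each lost when any 1 of 4 arrays was left out, up to 0.092 without EGFR gain array 1, 0.078 without EGFR gain array 2 and 0.14 without wild type array 3, so the 8 rises became 5 without EGFR gain array 1. In the plot of the family, members of the E group lie on both sides, and most called members of the D group differ by more than 1 log2 unit.

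**Figure D4:**
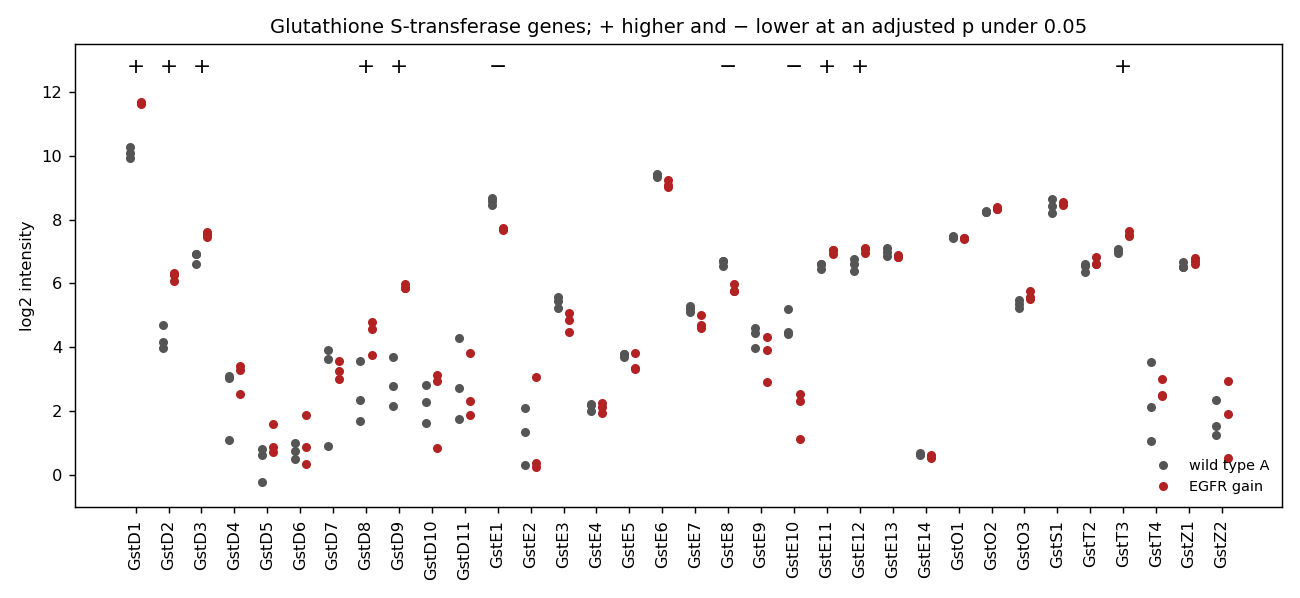
Log2 intensity of the 34 measured glutathione S-transferase genes in the 3 wild type A arrays (grey) and the 3 EGFR gain arrays (red), 1 point per array, with + above genes called higher and − above genes called lower. All calls in the D group are rises, and the E group holds 3 falls and 2 rises.

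Of 80 measured cytochrome P450 genes matched by the list 4 were called higher and 2 lower (7.5%, beside 3.15% of all genes). The list did not match Cyp12d1-d, described above as higher, and these counts leave it out. Cyp12a4 was among the rises, at 4.71, 4.93 and 4.65 in wild type A and 5.68, 5.90 and 5.41 in EGFR gain. Its change was 0.90 ± 0.13 (adjusted p = 0.0022), and it was not called against EGFR loss or BMP gain (0.85 and 0.26). Limma called 0 of 33 UDP-glycosyltransferase genes, 10 carboxylesterase genes, 35 odorant-binding protein genes and 16 heat shock genes, of which 3, 0, 1 and 4 had an unadjusted p under 0.05. Of 123 chemosensory receptor genes 0 rose and 2 fell (1.63%, under the 3.15% of all genes), Ir76a and Ir7c. The latter was at 5.13, 5.34 and 5.39 against 4.47, 4.34 and 4.45, a change of -0.87 ± 0.13 (0.0021), and it differed from BMP gain by -0.00 (1.0) and was lower than EGFR loss by -1.30 ± 0.13 (0.00012).

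Eggshell genes were lower in part. Of 10 measured genes of the vitelline membrane and early eggshell, 3 fell and 0 rose (30% called, beside 3.15% of all genes), with a median change of -0.13. In 6 of the 10 all EGFR gain arrays were below all wild type arrays, as in 10.6% of all probe sets. Vm32E, for a protein of the vitelline membrane, was at 12.27, 12.32 and 12.32 in wild type A and at 11.49, 11.28 and 11.63 in EGFR gain. All wild type arrays were above all EGFR gain arrays, and the change was -0.84 ± 0.08, or 1.79-fold lower (adjusted p = 7.6e-05). Its level was 12.35 ± 0.04 in EGFR loss and 5.85 ± 0.06 in BMP gain, so EGFR gain differed by -0.88 ± 0.08 (9.7e-05) from the former and by 5.62 ± 0.08 (3.3e-14) from the latter. The gene psd, for another early eggshell protein, gave 10.65, 10.62 and 10.59 against 10.14, 10.05 and 10.14. It changed by -0.51 ± 0.10 (0.012, or 0.051 without EGFR gain array 2) and was not called against EGFR loss (0.19) or BMP gain (0.30). Vm26Ac, also of the vitelline membrane, was at 10.20, 10.18 and 10.23 against 9.77, 9.74 and 9.99, a change of -0.37 ± 0.09 (0.043). That call held only without EGFR gain array 3 and reached 0.16 without EGFR gain array 1. For dec, Vm34Ca and Vm26Aa changes of -0.20, -0.15 and -0.09 were not called (0.12, 0.34 and 0.58), although their arrays did not overlap either.

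The 7 measured chorion genes, which form the outer eggshell later in oogenesis, all had a negative change, from -1.53 to -0.38 with a median of -0.65. Of them 1 was called (14.3%, beside 3.15% of all genes). That gene, Cp15, was at 7.92, 8.30 and 9.04 in wild type A and at 6.49, 6.76 and 7.42 in EGFR gain. It fell by 1.53 on the log2 scale with SE 0.36 (adjusted p = 0.036), a call lost without wild type arrays 2 or 3 or EGFR gain arrays 1 or 2, up to 0.16 without wild type array 3. Against EGFR loss, at 9.19 ± 0.75, Cp15 was lower by -2.30 ± 0.36 (0.0038), and against BMP gain, at 7.27 ± 0.18, it was not called (0.79). Cp7Fc gave 11.00, 11.77 and 11.75 against 10.50, 10.34 and 10.82, without overlap, and the change of -0.95 ± 0.39 was not called (0.28). Mean levels over the chorion list were 8.75, 9.36 and 9.42 in the wild type arrays and 8.40, 8.07 and 8.79 in the EGFR gain arrays, so wild type array 1 lay within the EGFR gain range. Of 4 measured genes of yolk protein and its uptake limma called 0, and 2 had an unadjusted p under 0.05. Yp1 was at 12.75, 12.70 and 12.69 in wild type A and at 12.93, 12.89 and 12.83 in EGFR gain, a change of 0.17 ± 0.06 (0.18). Yp1, Yp2 and Yp3 were higher in EGFR gain than in EGFR loss, by 0.69 ± 0.06, 0.58 ± 0.07 and 0.47 ± 0.06 (3.2e-05, 0.00047 and 0.00083).

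Genes of cell adhesion and of the extracellular matrix held a few changes among many that were not called. Of 12 measured adhesion genes 1 rose and 1 fell (16.7%), and of 13 matrix genes 1 rose (7.69%), beside 3.15% of all genes. The gene mys, for the beta subunit of the PS integrins, receptors that join cells to the basement membrane, was at 6.47, 6.57 and 6.52 in wild type A and at 7.33, 7.27 and 7.39 in EGFR gain. The arrays within each group lay close together, and the rise was 0.81 ± 0.07, or 1.75-fold (adjusted p = 2.7e-05). In EGFR loss and BMP gain mys stood at 7.07 ± 0.01 and 7.23 ± 0.02, and neither was called different from EGFR gain (0.083 and 0.67). The gene mew, for an integrin alpha subunit that pairs with the product of mys, gave 5.10, 4.85 and 4.73 against 4.38, 4.33 and 4.23. It changed by -0.58 ± 0.13 (0.032), a call that held only without wild type array 3 and reached 0.12 without wild type array 1. EGFR gain had less mew than BMP gain, by -1.09 ± 0.13 (0.00079), and than EGFR loss, by -0.57 ± 0.13 (0.043), the latter lost whichever array was left out and up to 0.13 without EGFR gain array 3.

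LanA, for the alpha chain of laminin, a sheet-forming protein of the basement membrane, was at 4.05, 3.88 and 3.75 in wild type A and at 4.97, 4.82 and 4.86 in EGFR gain, without overlap. It rose by 0.99 ± 0.13, or 1.99-fold (adjusted p = 0.00094), and was not called against EGFR loss (0.50 ± 0.13, 0.076) or BMP gain (0.31 ± 0.13, 0.40). The laminin genes LanB1 and LanB2 changed by 0.50 and 0.21 and were not called. Col4a1, a type IV collagen gene, gave 5.13, 4.68 and 5.05 against 5.82, 5.68 and 5.57, a difference of 0.73 ± 0.20 that was not called (0.074). For trol, which encodes perlecan, the difference was 0.74 ± 0.24 (0.15). In both genes the arrays did not overlap by these probe sets. A dimmer trol probe set overlapped, at 0.97 ± 0.45 (0.36).

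**Figure D5:**
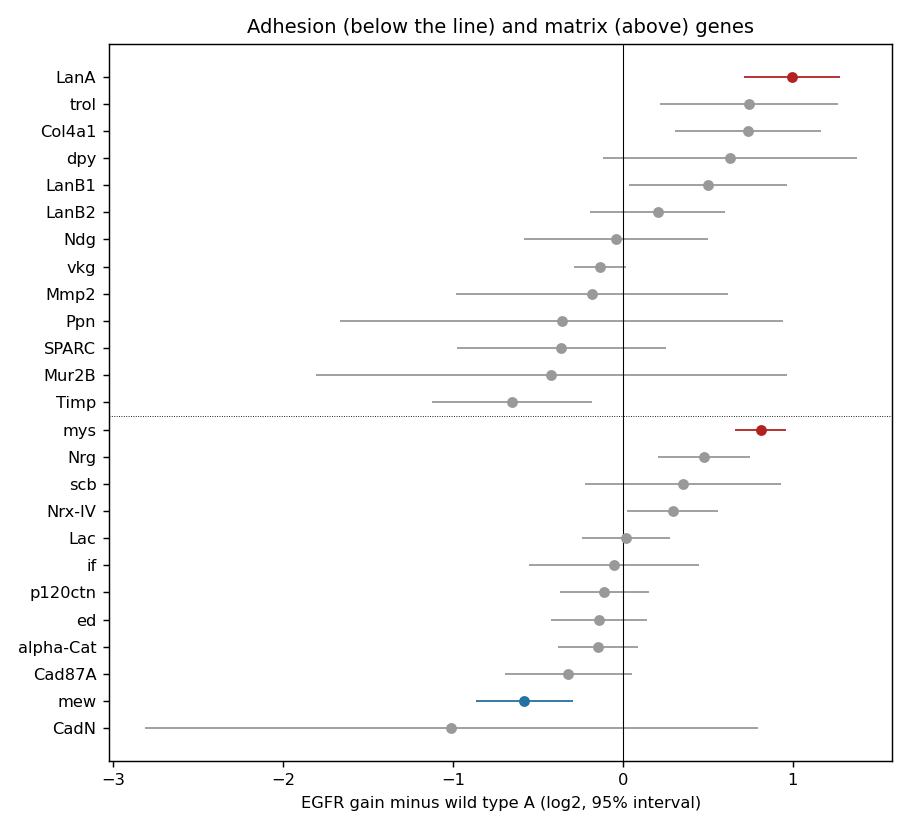
Difference between EGFR gain and wild type A (log2, with 95% intervals) for 12 adhesion genes below the dotted line and 13 matrix genes above it, with calls higher in red, lower in blue and uncalled genes in grey. The genes mys and LanA lie to the right of zero and mew to the left, while most intervals of the other genes cross or come near zero.

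In the Notch list, 1 of 7 measured genes was called. It was numb, whose product restrains Notch in asymmetric cell divisions, at 9.02, 8.99 and 8.98 in wild type A and 7.99, 7.93 and 8.18 in EGFR gain. The change of -0.96 ± 0.11, or 1.95-fold lower (adjusted p = 0.00018), kept its call without each array. Levels of numb in EGFR loss and BMP gain were 8.28 ± 0.23 and 8.20 ± 0.03, not called different from EGFR gain (0.31 and 0.63).

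Antimicrobial peptide genes, the outputs of the immune pathways, were higher in part. Of 7 measured 2 rose (28.6%, beside 3.15% of all genes), with a median change of 1.12. Mtk, for Metchnikowin, was at 1.23, 3.17 and 1.99 in wild type A and at 5.83, 5.97 and 5.60 in EGFR gain, a rise of 3.67 ± 0.90 (adjusted p = 0.045). Drs, for Drosomycin, gave 1.35, 2.71 and 0.94 against 3.73, 4.43 and 4.25, a rise of 2.47 ± 0.57 (0.034). The wild type values were dim and spread over more than 1 log2 unit in each gene. The call of Mtk was lost whichever of the 6 arrays was left out, up to 0.15 without wild type array 1, and that of Drs was lost without each array other than wild type array 2, up to 0.15 without wild type array 3. Mtk was higher than in EGFR loss, by 4.13 ± 0.90 (0.031, up to 0.10 without EGFR gain array 2), and not called against BMP gain, by 3.58 ± 0.90 (0.087). DptB, for Diptericin B, was at 5.14, 5.15 and 5.37 against 6.37, 6.52 and 6.28, all above wild type, with a change of 1.17 ± 0.38 that was not called (0.14). Of 11 immune signalling genes limma called 0, and 3 had an unadjusted p under 0.05.

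Markers of cells that could adhere to dissected egg chambers were read beside the immune genes. Of 6 measured fat body genes limma called 0, and 0 had an unadjusted p under 0.05. Their summed level (log2 of the sum) was 6.85 to 7.09 in wild type A and 7.32 to 7.60 in EGFR gain, without overlap. The list means, 3.34 to 3.76 against 3.53 to 3.94, overlapped, and the changes ran from -0.34 to 0.75 with a median of 0.05. The largest change among the 6 fat body genes was that of Obp99a, which gave 5.96, 5.76 and 5.64 against 6.51, 6.63 and 6.47 (0.75 ± 0.49, adjusted p = 0.58). The fat body gene Fbp2 was at 1.18 to 1.74 in wild type A and 0.77 to 1.48 in EGFR gain, at the bottom of the scale in both. For 7 hemocyte genes both counts were 0 and the summed level was 6.61 to 6.97 against 6.56 to 6.85, with overlap. The part of fat body RNA in the immune result was not tested. Among 14 muscle, 11 gut, 10 nervous system and 6 male reproductive tract genes 0 were called by limma, and 1 gut gene had an unadjusted p under 0.05. The muscle genes had a median change of -0.37, with list means of 3.56 to 3.65 in wild type A and 2.92 to 3.38 in EGFR gain, without overlap, while their summed level was 9.93 to 9.99 against 9.73 to 10.10, with overlap. The part of muscle RNA in the comparison with wild type was not tested.

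Genes of DNA replication and the cell cycle had small changes against wild type. Of 17 measured replication genes 2 fell (11.8%, beside 3.15% of all genes) and 0 rose, with a median of -0.12. In 8 all EGFR gain arrays were below wild type, as in 10.6% of all probe sets. Against BMP gain 4 of the 17 were called lower, RnrL, Orc1, Orc5 and PCNA, and 0 higher, beside 1.27% of all probe sets. That change was negative in 15, with a median of -0.28. Against EGFR loss 0 of the 17 were called, with a negative change in 11 and a median of -0.03. Mcm3, for a subunit of the replicative helicase, was at 7.32, 7.37 and 7.20 in wild type A and 6.95, 6.83 and 6.84 in EGFR gain, a change of -0.42 ± 0.10 (adjusted p = 0.037) that lost its call whichever of the 6 arrays was left out (up to 0.14 without wild type array 2). The gene dup, for a factor that loads the helicase, changed by -0.36 ± 0.09 (0.042), held only without EGFR gain array 3 and was highest without EGFR gain array 1 (0.17). The gene fzr, for an activator of the anaphase-promoting complex that acts in the switch of follicle cells to endocycles, gave 6.69, 6.76 and 6.71 against 7.01, 7.17 and 7.48. It rose by 0.50 ± 0.10 (0.018), a call lost when any wild type array was left out (up to 0.068 without array 3), and stood at 7.19 ± 0.04 and 7.35 ± 0.07 in EGFR loss and BMP gain. Of 19 germline genes 1 fell, piwi, which guards the germline genome through small RNAs, by -0.41 ± 0.08 (0.013), not called without EGFR gain array 1 (0.066) or wild type array 3. Of 31 cytosolic ribosome genes 1 was called, RpS18 at 0.32 ± 0.06 (0.012, or 0.056 without wild type array 2). Among 64 mitochondrial ribosome genes mRpL47 rose by 0.71 ± 0.10 (0.0013) and mRpS29 fell by 0.41, with SE 0.10 (0.037), the latter losing its call whichever of the 6 arrays was left out (up to 0.16 without wild type array 3). Limma called 0 of 39 proteasome, 17 BMP pathway, 11 ecdysone, 9 border cell and JAK-STAT and 8 JNK pathway genes, of which 3, 4, 1, 1 and 4 had an unadjusted p under 0.05. In the lists of maternal Toll genes (11) and Toll-family receptors (6) the calls were those of wbl and 18w.

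Some called genes lie next to each other in the gene order. Of 8837 adjacent pairs with both genes measured, 13 had both genes called, 12 of them in the same direction. Over all genes 3.15% were called, and whether adjacent pairs exceed what that share would give was not tested. Beside the glutathione S-transferase runs and the pair of Cyp28d1 and CG7742, the same direction was read for CG18336 and CG42336, which rose by 1.83 ± 0.39 (adjusted p = 0.023) and 1.05 ± 0.15 (0.0022). CG42336 was at 6.04, 6.21 and 6.12 in wild type A and at 7.21, 7.39 and 6.93 in EGFR gain and exceeded EGFR loss by 1.01 ± 0.15 (0.0033). A dimmer CG42336 probe set changed by 0.43 against wild type (0.90), with overlapping arrays. The call of CG18336 held only without EGFR gain array 3 and reached 0.092 without wild type array 3. CG14621 and CG14615 fell together, by -0.87 ± 0.14 (0.0043) and -0.64 ± 0.12 (0.011, or 0.053 without EGFR gain array 1). So did Saf-B, for a nuclear RNA- and DNA-binding protein, at -0.53 ± 0.07 (0.0014), and CG5808, at -0.57 ± 0.11 (0.014, up to 0.066 without wild type array 3 and also lost without EGFR gain array 2). Agpat2, for an enzyme of phospholipid synthesis, changed by -0.66 ± 0.12 (0.0067) and its neighbour Aasdh by -0.63 ± 0.14 (0.025, up to 0.11 without wild type array 2, also lost without wild type array 1 and EGFR gain array 2). Falls were also those of spict, at -0.49 ± 0.09 (0.012), and CG15484, at -1.11 ± 0.27 (0.048). The call of spict was lost without EGFR gain array 1 (0.058) or wild type arrays 1 or 2, and that of CG15484 held only without EGFR gain array 2 and reached 0.19 without wild type array 3. DMAP1 and Lrt rose by 0.38 ± 0.08 (0.018) and 0.65 ± 0.15 (0.035), the former lost when any 1 of 4 arrays was left out and up to 0.079 without wild type array 2, the latter lost whichever array was left out and up to 0.15 without wild type array 3. The neighbour of mRpL47, CG8176, rose by 0.40 ± 0.08 (0.019), held only without wild type array 1 and reached 0.10 without wild type array 3. The pair in opposite directions was Jarid2, for a subunit of a Polycomb complex, which rose by 0.84 ± 0.16 (0.013), and pall, which fell by 0.38, with SE 0.08 (0.027). Both calls of that pair were lost without wild type arrays 2 or 3 or EGFR gain array 2, and that of pall also without EGFR gain array 1, at up to 0.068 for Jarid2 and 0.12 for pall. Whether neighbouring genes share RNA that both probe sets read was not tested.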

How the data were processed

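Total RNA of egg chambers was hybridized to first-generation Affymetrix Drosophila arrays, with 3 µg per sample per the labels' protocols. The authors deposited a table of log2 intensities for 14010 probe sets. The submitters' processing notes name affy, with no version, while the background correction and the summary method are not given in the sources used here. Base 2 was inferred, since the highest values would exceed the scanner's range on a natural-log scale. Array medians were nearly equal within a round, so nothing further was normalized, and the number of arrays limits the precision. The table gives no detection calls, so values near the bottom of the scale carry no bound.

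Gene names come from the platform annotation, with symbols brought up to date by a RefSeq gene table that also gave the gene order. Of 13966 tested, 12442 had 1 gene. A gene is represented by its probe set with the highest mean over 18 arrays. All 18 arrays were fitted as 6 group means with limma 3.58.1 in R 4.3.3 (lmFit, eBayes, 12 residual degrees of freedom), adjusted over all probe sets, two-sided. As alternatives the fit was run on 6 arrays or on round 1 alone, leaving out each array, a replicate block, array weights, trend and robust moderation, dropping dim probe sets, median centring, quantile normalization and other probe sets. The fit was tested on simulated data.

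Genes were named by rule, namely members of the EGFR and follicle patterning lists, the 15 largest rises and falls among called genes whose brighter group reached the median of 4.50, up to 4 called and 3 uncalled members of the other of 37 lists, and adjacent called genes. The members, lists, rule and tests were chosen with earlier results of these data known. Replicate numbers were checked for pairing through correlations of deviations between same-numbered arrays of the groups, which were -0.00061, -0.010 and 0.011, so no pairing was used.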

Additional observations from a re-analysis of the deposited data

How the results depend on the processing

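Directions held under each alternative for the 69 named calls except by other probe sets of a gene, which gave 1.10 for Cyp9b2, 0.29 and 0.11 for CG44153, and 0.0084 and 0.047 for dati. For Egfr, uncalled by its brighter probe set at -0.12, the other probe set gave 1.87 and was called. The number of called probe sets depended on the fit. For EGFR gain against wild type A it was 392, and it became 62 with the 6 arrays alone, 614 without dim probe sets, 215 with round 1 alone, 588 with trend and robust moderation, 530 with array weights, 388 with median centring and 392 after quantile normalization, and it ran from 219 to 318 with 1 array left out. It was 220, 257 and 318 without EGFR gain arrays 1, 2 and 3, and 280, 219 and 226 without wild type A arrays 1, 2 and 3. For EGFR gain against EGFR loss (293) the counts in the same order were 2, 497, 157 and 446, from 173 to 270 with 1 array left out. For EGFR gain against BMP gain (178) they were 41, 288, 78 and 281, from 89 to 138. The replicate numbers are only names, and with them as a replicate block the counts were 241, 167 and 102. Of the 69 named calls 37 held with each array left out in turn, 20 with the 6 arrays alone, 47 with round 1 alone, 47 with the block and 68 after quantile normalization, and 23 were dim and not tested by the filter. The cause of these shifts was not tested, beyond the fewer arrays or probe sets that an alternative fits. Lists with 0 calls gained a few under some alternatives. With trend and robust moderation 1 JNK pathway and 1 yolk gene became higher, and 1 gene of each of these lists, 2 proteasome genes, 1 heat shock gene, 1 odorant-binding protein gene and 1 gene of the ligand and receptor list lower. Array weights called 1 JNK gene higher, 1 JNK gene lower and 1 ligand or receptor gene lower, and median centring 1 JNK and 1 ligand or receptor gene lower. Without dim probe sets 1 ecdysone, 1 gut and 1 JNK gene were higher, and 1 gene each of the JNK, ligand and receptor, heat shock, odorant-binding and proteasome lists lower. The 6 arrays alone called 1 BMP gene higher. Lists with calls lost many of them in that fit. It called 2 glutathione S-transferase genes higher and 1 lower, and 1 follicle patterning gene higher and 0 lower. It called 0 vitelline membrane and 0 chemosensory genes. Round 1 alone called 5 glutathione S-transferase genes higher and 2 lower. Leaving out EGFR gain array 1 or 3 called 1 UDP-glycosyltransferase gene higher, and leaving out array 1 called 1 heat shock gene lower. In the feedback list round 1 alone called 2 genes higher. Without EGFR gain array 3 it held 1 call, a rise of a gene other than kek1.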

Other observations

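Some genes of the lists were not called against wild type A but differed between EGFR gain and another driver line. The gene tkv, for a BMP receptor, was at 7.42, 7.44 and 7.31 in wild type A and at 7.04, 7.28 and 7.04 in EGFR gain, a change of -0.27 ± 0.10 (limma adjusted p = 0.21), and stood at 6.41 ± 0.12 in EGFR loss. By this probe set EGFR gain was above EGFR loss by 0.71 ± 0.10 (0.0015). A dimmer tkv probe set was at 6.32, 6.64 and 6.29 in EGFR gain and at 6.13 ± 0.44 in EGFR loss. Its difference of 0.29 from EGFR loss was not called (0.53). In BMP gain, the line that carries the activated form of this receptor, this probe set was at 8.33, 8.44 and 8.25. The gene magu, for a secreted protein that acts on BMP signalling, was at 5.73, 5.74 and 5.82 in EGFR gain and at 7.35, 7.24 and 7.31 in BMP gain, a difference of -1.54 ± 0.17 (0.00038), with 6.29 ± 0.27 in wild type A. PGRP-SC2, for an enzyme that degrades peptidoglycan, was 2.57 ± 0.23 in wild type A, 3.24 ± 0.23 in EGFR gain, 4.81 ± 0.33 in EGFR loss and 4.40 ± 0.45 in BMP gain. It was lower in EGFR gain than in EGFR loss, by -1.57 ± 0.22 (0.0016), the opposite of the order read for Mtk. Timp, for an inhibitor of matrix metalloproteinases, was at 5.40 ± 0.28 in EGFR gain and at 6.70 ± 0.18 in EGFR loss, a difference of -1.30 ± 0.22 (0.0065), with 6.06 ± 0.11 in wild type A. The transcription factor gene cbt was above BMP gain by 0.92 ± 0.19 (0.027), a call lost whichever array was left out, up to 0.12 without EGFR gain array 1.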
